A study of Homo sapiens with 15 samples.

Results

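The EGF-like ligands and their ERBB receptors were followed in 15 RNA libraries of IMR90, a fibroblast line established from human fetal lung. The 9 genes were the ligands NRG1, HBEGF, AREG, EREG, TGFA and BTC and the receptors EGFR, ERBB2 and ERBB3, taken by name from the 57736 genes of a single count table. The libraries formed 5 groups of 3: senescent cells with Tri-1, a TXNRD1 inhibitor; senescent cells with DMSO; senescent cells with shTXNRD1, a short hairpin RNA directed at TXNRD1; senescent control cells; and growing control cells. TXNRD1 is the cytosolic thioredoxin reductase, and the comparisons ask how its inhibition changes senescent fibroblasts. The sources used here do not give how senescence was induced, the dose and time of Tri-1, the number of hairpin sequences, what the senescent control cells carried or whether replicates were separate cultures. P-values measure only the spread among these libraries, which may be technical.

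EGF-like ligands are made as membrane-anchored precursors, and metalloproteases cut them free. AREG, TGFA and EGF bind EGFR; HBEGF, EREG and BTC bind EGFR and ERBB4; NRG1 binds ERBB3 and ERBB4. ERBB2 has no known soluble ligand and acts as the preferred partner of the other receptors, while ERBB3 has little kinase activity of its own. In cultures of senescent fibroblasts several of these ligands, among them AREG, EREG and NRG1, are known parts of the secreted factor mixture.

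Library totals ran from 18033076 to 28909046 counts, with a median of 21156213. TXNRD1 itself averaged 431 ± 11.6 CPM with Tri-1 against 408 ± 19.3 CPM with DMSO, and 22.6 ± 2.30 CPM with shTXNRD1 against 515 ± 12 CPM in senescent control (SD, n = 3 each). CPM (counts per mega-count) is a gene's count scaled to a common library total, after the TMM correction of edgeR for differences in composition. The hairpin libraries thus matched their label, while a protein inhibitor leaves no such mark. A panel of 10 fibroblast markers summed to 11677 to 21772 CPM in every library, and 6 leukocyte markers summed to at most 1.5 CPM. Across all genes, 2 libraries stood apart from the other 13: growing replicate 1 and shTXNRD1 replicate 3 had lower levels of GC-rich transcripts, with slopes of -0.427 and -0.441 log2 CPM per 10 percentage points of transcript GC, against -0.149 to 0.225 in the others. For AREG and ERBB2, the values without those libraries are given beside the results.

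Of the 9 genes, 6 passed the filter on low counts and were tested (NRG1, HBEGF, AREG, EREG, EGFR and ERBB2), among 15994 tested genes. TGFA, BTC and ERBB3 were too low, and their counts are given as counts. A gene was called where the quasi-likelihood F test of edgeR gave an adjusted p under 0.05. In bulk RNA, fewer cells that express a gene and less of its RNA per cell cannot be told apart.

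**Figure D1:**
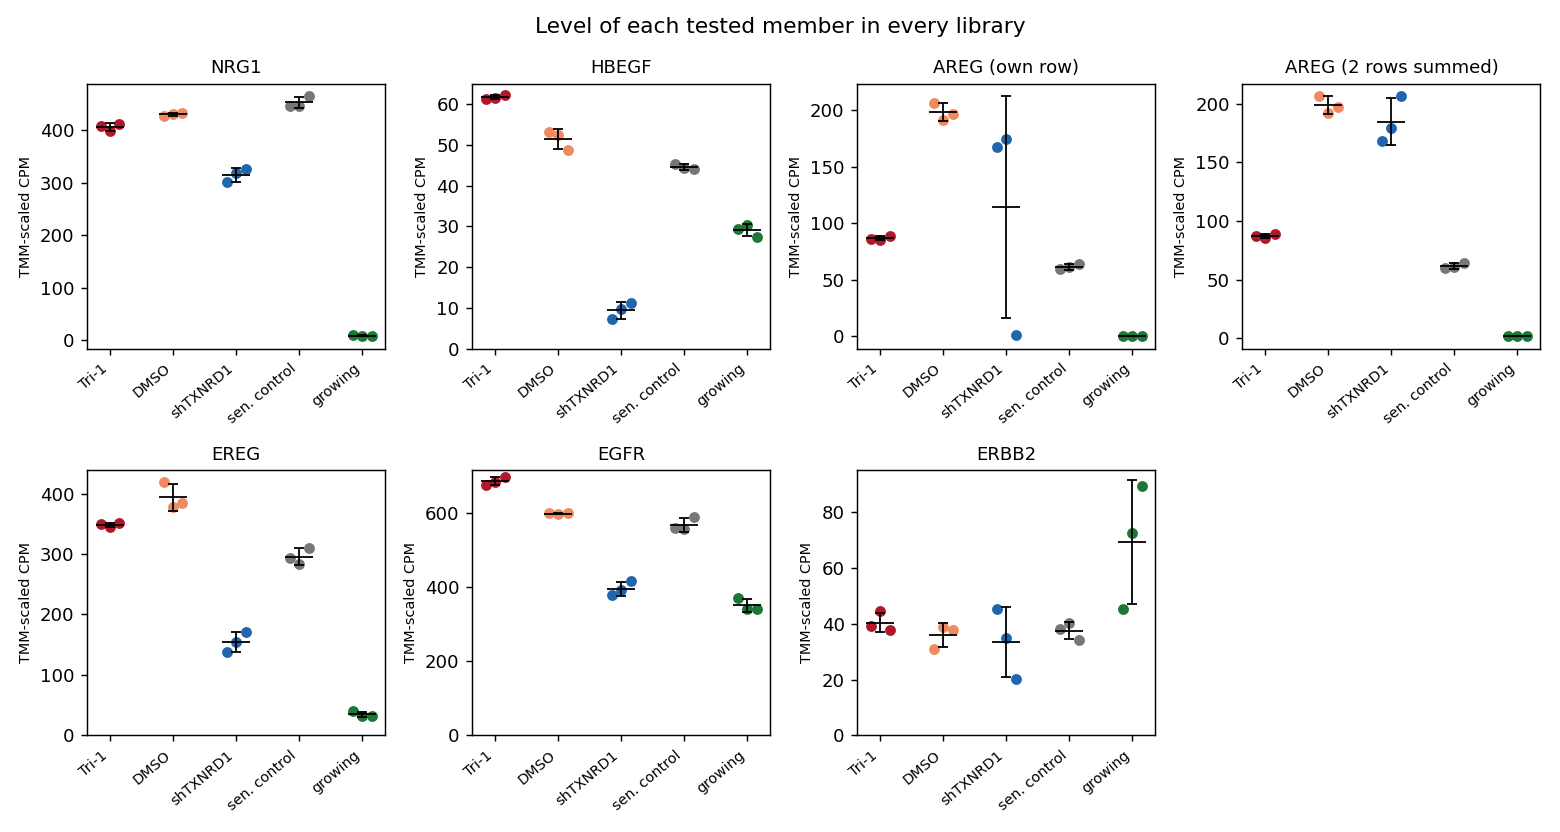
Each panel shows 1 tested gene in TMM-scaled CPM, with a point per library, a horizontal line at the mean of 3 libraries and bars of 1 SD, for Tri-1, DMSO, shTXNRD1, senescent control and growing libraries. NRG1 was lowest in the 3 growing libraries (7.56 to 9.80 CPM), HBEGF was lowest in the 3 shTXNRD1 libraries (7.15 to 11.1 CPM), and the AREG row of shTXNRD1 replicate 3 stood at 1.29 CPM until a second row was added to it.

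NRG1, neuregulin 1, was abundant in senescent cells and low in growing ones. It stood at 409, 398 and 412 CPM in the Tri-1 libraries, 428, 431 and 433 CPM in the DMSO libraries, 301, 319 and 327 CPM in the shTXNRD1 libraries, 447, 447 and 466 CPM in the senescent control libraries, and 9.80, 8.63 and 7.56 CPM in the growing libraries. The 12 senescent libraries all lay far above the 3 growing ones, and the 3 hairpin libraries formed the low end of the senescent range. The gene counts do not separate the many NRG1 isoforms, some of which stay in the membrane.

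HBEGF, the heparin-binding ligand that also serves as a membrane-bound juxtacrine signal, had its own order of groups. Its levels were 61.3, 61.6 and 62.3 CPM with Tri-1, 53.1, 52.5 and 48.7 CPM with DMSO, 7.15, 9.80 and 11.1 CPM with shTXNRD1, 45.3, 44.4 and 44.0 CPM in senescent control, and 29.3, 30.4 and 27.4 CPM in growing control. No range of a group touched that of another, and the hairpin libraries were below the growing ones.

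AREG, amphiregulin, and EREG, epiregulin, are neighbours on chromosome 4, where the order of protein-coding genes in the RefSeq annotation is MTHFD2L, EPGN, EREG, AREG, BTC and PARM1. EREG had 349, 344 and 351 CPM with Tri-1, 419, 377 and 385 CPM with DMSO, 138, 154 and 171 CPM with shTXNRD1, 294, 283 and 310 CPM in senescent control, and 39.4, 32.3 and 32.3 CPM in growing control. All 5 groups were separate, with the hairpin libraries between the growing and the other senescent ones.

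The AREG row gave 86.5, 85.4 and 88.7 CPM with Tri-1, 207, 192 and 197 CPM with DMSO, 168, 175 and 1.29 CPM with shTXNRD1, 59.6, 61.2 and 64.5 CPM in senescent control, and 0, 0.781 and 0.517 CPM in growing control. In counts, the shTXNRD1 libraries held 3355, 4010 and 26, so that 1 hairpin library was far below the other 2. A second row of the table, identifier ENSG00000205595, held 11, 81 and 4145 counts in those same libraries. That row has no gene name in the annotations used here, and it was picked after the values were seen, in a search of 29006 rows for the one whose addition most reduced the spread of AREG within groups.

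Added together, the pair of rows gave AREG levels of 87.0, 85.6 and 89.0 CPM with Tri-1, 207, 192 and 197 CPM with DMSO, 168, 179 and 207 CPM with shTXNRD1, 59.7, 61.2 and 64.6 CPM in senescent control, and 1.94, 1.64 and 1.64 CPM in growing control. The within-group SD of log2 CPM was 2.19 for the AREG row and 0.0992 for the sum, and the next best row, KYNU, another gene, gave 0.178. Since the second row was picked to make this SD small, its low value cannot support the pairing. For the same reason the SE and adjusted p of summed AREG may be too small throughout. The second row held 99.4% of the summed counts in shTXNRD1 replicate 3 (95% exact Clopper-Pearson interval 99.1% to 99.6%) and 100% of 49 counts in growing replicate 1 (92.7% to 100%). In growing replicates 2 and 3 it held 52.5% of 40 counts and 68.6% of 35 counts, in shTXNRD1 replicate 2 it held 1.98%, and in the other 10 libraries 0.0808% to 0.527%. The 2 libraries that stood apart by GC slope were thus also those with nearly all such counts on the second row. The sources used here do not say how the submitters' counting shared reads between the rows, so AREG results are printed for its own row, which is the planned result, and for the sum.

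**Figure D2:**
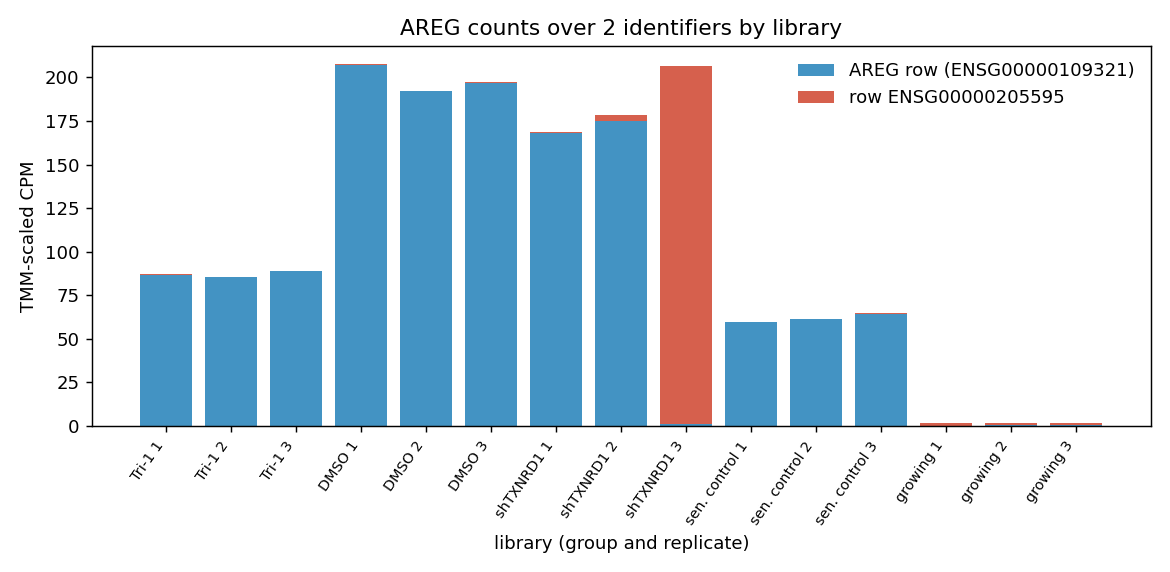
Stacked bars show the TMM-scaled CPM of the AREG row and of the row ENSG00000205595 in each of the 15 libraries, ordered Tri-1, DMSO, shTXNRD1, senescent control and growing. In shTXNRD1 replicate 3 the second row carried 205 CPM and the AREG row 1.29 CPM, and the summed bar (207 CPM) stood beside the 168 and 179 CPM of the other hairpin libraries.

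The promoter windows of AREG, EREG and HBEGF are shown, picked with their hairpin results known. Against senescent control HBEGF and EREG both fell with shTXNRD1, by different amounts (log2 -2.25 and -0.94). AREG was called higher in the sum (log2 1.58) but not on its own row. A link between these sequences and the changes was not tested. Each sequence is the 250 bases before the RefSeq gene start on the gene's own strand, build GRCh38.p14, at chr4:74444886-74445135 (plus strand) for AREG, chr4:74364895-74365144 (plus strand) for EREG and chr5:140346604-140346853 (minus strand) for HBEGF. Capitals mark exact matches, on either strand, to the cAMP response element TGACGTCA, the AP-1 site TGANTCA, the TATA box TATAAA or the NF-kB consensus.
AREG: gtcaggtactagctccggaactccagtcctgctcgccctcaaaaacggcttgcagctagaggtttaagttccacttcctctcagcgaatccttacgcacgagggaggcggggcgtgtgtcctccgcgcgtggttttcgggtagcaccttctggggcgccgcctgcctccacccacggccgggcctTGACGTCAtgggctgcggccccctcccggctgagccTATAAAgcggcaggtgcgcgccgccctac
EREG: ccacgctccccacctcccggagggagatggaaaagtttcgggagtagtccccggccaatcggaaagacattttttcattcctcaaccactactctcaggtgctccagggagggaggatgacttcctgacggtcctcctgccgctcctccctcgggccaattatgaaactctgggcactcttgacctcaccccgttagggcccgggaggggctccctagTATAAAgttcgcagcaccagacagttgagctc
HBEGF: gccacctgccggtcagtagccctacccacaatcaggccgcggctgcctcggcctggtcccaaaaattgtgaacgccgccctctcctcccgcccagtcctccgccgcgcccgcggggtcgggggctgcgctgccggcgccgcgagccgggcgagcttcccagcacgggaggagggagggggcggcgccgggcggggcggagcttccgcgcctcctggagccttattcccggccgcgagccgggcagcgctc

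The AREG window held the cAMP response element, which begins 65 bases before the start, and a TATA box that begins 29 bases before it. In the EREG window the sole match was a TATA box that begins 32 bases before the start. The HBEGF window held none of the 4 motifs, but it held 5 matches to the GC box GGGCGG (not capitalised), while AREG held 1 and EREG none. Among 35116 RefSeq promoter windows of 300 bases (250 before and 50 after the start, the window searched for every gene), 1.85% held the cAMP response element, 11.5% the TATA box, 7.71% the AP-1 site, 11.3% the NF-kB consensus and 45.0% the GC box. These matches describe letters only. Promoter windows were at hand for 7 of the 9 genes, with NRG1 and ERBB3 the other 2.

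TGFA and BTC, the remaining ligands, were close to the detection limit. TGFA, a high-affinity EGFR ligand, had 5, 5 and 3 counts with Tri-1, 2, 4 and 6 with DMSO, 2, 4 and 3 with shTXNRD1, 5, 10 and 10 in senescent control, and 0 in each growing library. The growing group was set to a floor of 3 counts in all. Mean TGFA stood at 4.82 times that floor with Tri-1, 4.19 times with DMSO, 3.33 times with shTXNRD1 and 9.42 times in senescent control. The ratios leave out the counting error of the senescent groups, so they are not lower bounds. BTC, betacellulin, had 0 to 3 counts in every library, and no difference was detectable at this depth.

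EGFR was the receptor with the highest level. It measured 675, 682 and 696 CPM with Tri-1, 598, 597 and 598 CPM with DMSO, 378, 391 and 416 CPM with shTXNRD1, 558, 555 and 588 CPM in senescent control, and 371, 341 and 340 CPM in growing control. The Tri-1 libraries were the highest and the hairpin libraries lay just above the growing ones, without overlap. An antisense gene, EGFR-AS1, is annotated at this locus, and no source used here gives the strand setting of the counting, so its reads cannot be told apart from those of EGFR.

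ERBB2 varied more between replicates than NRG1, HBEGF, EREG and EGFR, with a within-group SD of log2 CPM of 0.364 against 0.0501 to 0.152 in those genes. Its levels were 39.2, 44.5 and 37.7 CPM with Tri-1, 31.0, 39.0 and 37.7 CPM with DMSO, 45.3, 34.9 and 20.2 CPM with shTXNRD1, 38.2, 40.3 and 34.2 CPM in senescent control, and 45.5, 72.7 and 89.6 CPM in growing control. The growing libraries were the highest, and the senescent groups overlapped each other. The lowest growing and the lowest hairpin value came from the 2 libraries with low levels of GC-rich transcripts, and ERBB2 has the highest transcript GC of the 9 genes (57.5%, against 36.1% for EREG at the low end). ERBB2 shares exon bases with PGAP3 and MIEN1 on the opposite strand, whose reads likewise cannot be told apart from its own. ERBB3, the receptor that binds neuregulins, had 0 to 12 counts per library, with sums of 6 for Tri-1, 13 for DMSO, 22 for shTXNRD1, 8 in senescent control and 18 in growing control. It overlaps another annotated gene, and no test was made.

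**Figure D3:**
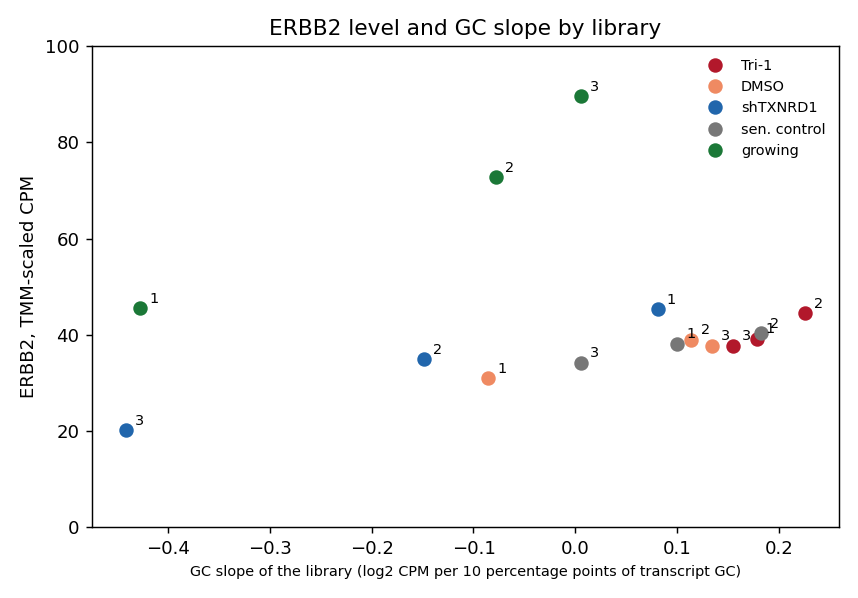
ERBB2 in TMM-scaled CPM (vertical axis) is plotted for each of the 15 libraries against the GC slope of that library, in log2 CPM per 10 percentage points of transcript GC (horizontal axis), with colours for the groups and digits for the replicates. Growing replicate 1 (45.5 CPM) and shTXNRD1 replicate 3 (20.2 CPM) lie at the left, at slopes of -0.427 and -0.441, and each is the lowest of its group.

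Among the genes of the family outside the 9, only EGF was high enough to be tested. EGF averaged 3.86 ± 0.479 CPM with Tri-1, 1.66 ± 0.114 CPM with DMSO, 2.34 ± 0.133 CPM with shTXNRD1, 3.90 ± 0.781 CPM in senescent control and 4.30 ± 0.948 CPM in growing control (SD, n = 3 each). The neuregulin receptor ERBB4 had 0 to 6 counts per library, and EPGN, NRG2, NRG3 and NRG4 had at most 5. The defining receptors of NRG1, ERBB3 and ERBB4, were therefore both near 0 in these cells. Schwann cells and melanocytes, which respond to neuregulin, were looked for by 4 markers, whose summed level was at most 2.27 CPM in any library, and SOX10 had at most 1 count.

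To set genes side by side, CPM was divided by the exon length of each gene in kilobases (exon union of GENCODE v29). The row ENSG00000205595 has no length in that annotation. Summed AREG was therefore divided by the length of AREG (1648 bases), here and in the ligand sums and shares below. On this scale, with Tri-1, EREG (60.9) came before EGFR (54.7) and summed AREG (52.9), and the last of these overlapped EGFR. With DMSO, summed AREG (121) came before EREG (68.9) and EGFR (47.7). With shTXNRD1 the order was summed AREG (112), EGFR (31.5), NRG1 (27.9), EREG (27), ERBB2 (3.24) and HBEGF (3.10), with overlap between NRG1 and EREG and between ERBB2 and HBEGF. In senescent control it was EREG (51.7), EGFR (45.3), NRG1 (40), summed AREG (37.5), HBEGF (14.8) and ERBB2 (3.64), and no range touched the next. In growing control EGFR (28) led, followed by HBEGF (9.62), ERBB2 (6.71), EREG (6.06), summed AREG (1.06) and NRG1 (0.765), where ERBB2 and EREG overlapped.

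The 6 ligands together came to 170 ± 2.39 CPM per kb with Tri-1, 245 ± 8.65 with DMSO, 170 ± 16.7 with shTXNRD1, 144 ± 4.50 in senescent control and 17.5 ± 1.13 in growing control (SD, n = 3 each). The make-up of the sum differed as well. HBEGF was 1.81% of this sum with shTXNRD1, 10.3% in senescent control and 55% in growing control. Summed AREG was 65.9% of it with shTXNRD1 against 26.0% in senescent control, and 31.1% with Tri-1 against 49.3% with DMSO. These shares depend on the length used. With the longest transcript in place of the exon union, NRG1 was 36.6% of the sum in senescent control, ahead of EREG at 30.6%, and summed AREG was 62.1% with shTXNRD1.

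**Figure D4:**
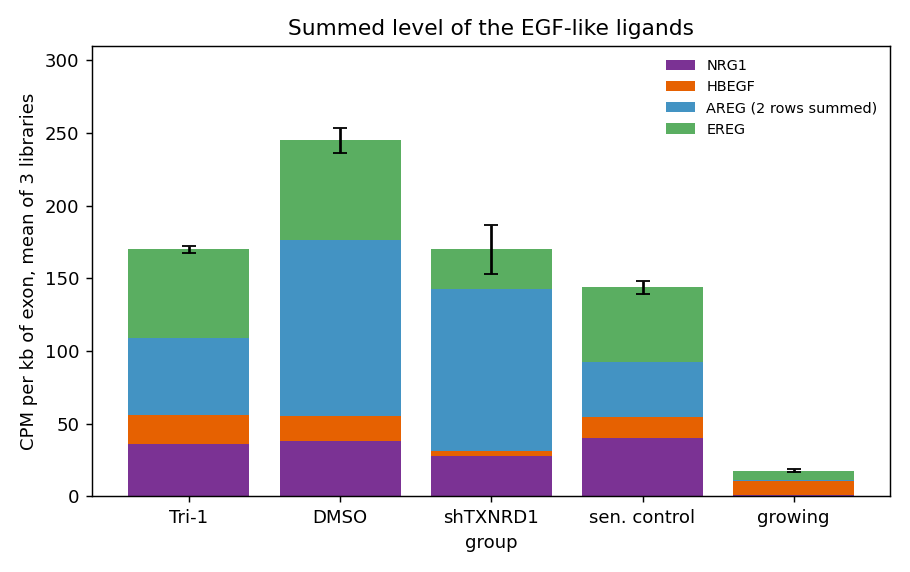
Stacked bars show the mean level over 3 libraries of NRG1, HBEGF, AREG (2 rows summed) and EREG in CPM per kb of exon, for Tri-1, DMSO, shTXNRD1, senescent control and growing, and the bars of error are 1 SD of the sum over ligands. The growing sum (17.5) is the smallest and the DMSO sum (245) the highest, and AREG takes most of the shTXNRD1 bar.

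The first comparison set senescent control against growing control. NRG1, AREG, EREG, HBEGF and EGFR rose and ERBB2 fell, so that 6 of 6 tested genes were called, where 56.9% of all tested genes were called (27.4% higher and 29.5% lower). NRG1 was 52.2-fold higher (log2 5.71 ± 0.08 SE, adjusted p = 9.61e-16), at 453 ± 10.9 CPM against 8.66 ± 1.12 CPM (SD, n = 3 each). EREG was 8.52-fold higher, at 295 ± 13.5 CPM against 34.7 ± 4.12 CPM (log2 3.09 ± 0.09, adjusted p = 2.13e-12). For AREG, the sum was 35.2-fold higher (log2 5.14 ± 0.10, adjusted p = 1.94e-14), and its own row gave log2 7.17 ± 1.40 (adjusted p = 0.000809).

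HBEGF rose less, 1.54-fold (log2 0.62 ± 0.10, adjusted p = 0.000159), at 44.6 ± 0.636 CPM against 29 ± 1.51 CPM. EGFR was 1.62-fold higher (log2 0.69 ± 0.05, adjusted p = 5.02e-08), at 567 ± 18.2 CPM against 351 ± 17.4 CPM. ERBB2 was 1.84-fold lower (log2 -0.88 ± 0.27, adjusted p = 0.0129), at 37.6 ± 3.14 CPM against 69.2 ± 22.2 CPM. In all 6 the groups did not overlap, as in 63.6% of tested genes. Without growing replicate 1, which stood apart by GC slope, the own AREG row gave log2 6.54 (adjusted p = 0.00595) and ERBB2 -1.11 (adjusted p = 0.00256), and all 6 remained called. The ERBB2 call ended without growing replicate 3 (log2 -0.65, adjusted p = 0.0642), and the own-row AREG call ended under limma-voom (log2 8.30, adjusted p = 0.232). For EGF the same comparison gave log2 -0.15 (adjusted p = 0.492).

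Genes around the receptors moved in both directions between senescent and growing control. Of 16 response genes that growth factors induce, 12 rose and 1 fell, with a median log2 change of 1.36 where the median of all genes was 0.03. IER3, an immediate early gene, gave log2 3.46 ± 0.10 (adjusted p = 1.38e-12) and DUSP6, an ERK phosphatase, 2.37 ± 0.07 (adjusted p = 1.16e-12). Of 10 shedding factors, 4 rose and 3 fell (median 0.22), with ADAM19, a metalloprotease, at 1.19 ± 0.05 (adjusted p = 3.76e-11) and BACE1, a protease that cuts NRG1, at -1.14 ± 0.05 (adjusted p = 2.61e-10).

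Among 12 regulators of the receptors or their ligands, which need not all act in the same direction, 4 rose and 3 fell (median -0.04). LRIG1, which promotes the loss of ERBB receptors from the membrane, gave log2 2.56 ± 0.07 (adjusted p = 7.74e-13), and CD9, a tetraspanin that associates with the HBEGF precursor, 1.32 ± 0.07 (adjusted p = 4.70e-10). Of 11 tested adaptors, 2 rose and 5 fell (median -0.13), with SHC1, an adaptor of RAS signalling, at 0.75 ± 0.12 (adjusted p = 0.000108) and GAB1, a docking protein, at -0.72 ± 0.13 (adjusted p = 0.000367). These lists hold genes that many other stimuli also control, and a part of EGF-like signalling in their change was not tested. The endothelial marker panel, of 5 genes in the table, summed to 159 to 172 CPM in senescent control and 109 to 134 CPM in growing control. Nearly all of this was TEK, at 161 CPM and 120 CPM. The epithelial panel of 6 summed to 6.20 to 7.87 CPM and 9.52 to 14.1 CPM. Fibroblast markers summed to 16994 to 19610 CPM and 16526 to 21772 CPM, with 3 of 10 called higher and 4 lower. The proliferation genes MKI67, TOP2A, CCNB1 and CDK1 summed to 93.5 to 101 CPM and 624 to 730 CPM in the same order of groups, with 4 of 4 called lower. The part of these shifts in the results was not tested.

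The second comparison set shTXNRD1 against senescent control. HBEGF, EREG, NRG1 and EGFR fell, so that 4 of 6 tested genes were called where 50.7% of all tested genes were (25.8% higher and 24.8% lower). HBEGF moved most and was 4.77-fold lower (log2 -2.25 ± 0.11, adjusted p = 1.38e-09), at 9.33 ± 1.99 CPM against 44.6 ± 0.636 CPM (SD, n = 3 each). EREG was 1.91-fold lower (log2 -0.94 ± 0.09, adjusted p = 7.10e-07), at 154 ± 16.3 CPM against 295 ± 13.5 CPM. NRG1 was 1.44-fold lower (log2 -0.52 ± 0.07, adjusted p = 1.31e-05) and EGFR 1.43-fold lower (log2 -0.52 ± 0.05, adjusted p = 1.72e-06).

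AREG went the other way in the sum, at 185 ± 19.8 CPM against 61.8 ± 2.52 CPM, or 2.99-fold higher (log2 1.58 ± 0.07, adjusted p = 6.68e-10). All 3 hairpin libraries were above all 3 senescent control libraries, but not above the DMSO libraries, which averaged 199 ± 7.58 CPM of summed AREG. The AREG row alone gave log2 0.90 ± 0.84 against senescent control (adjusted p = 0.403), a value that 1 library decides. Without shTXNRD1 replicate 3 the same row gave log2 1.47 (adjusted p = 2.52e-05), and under limma-voom it gave -0.83 (adjusted p = 0.614). For ERBB2 no change was detectable, at 33.5 ± 12.6 CPM against 37.6 ± 3.14 CPM (log2 -0.17, 95% interval -0.76 to 0.43, adjusted p = 0.635), and its sign turned with a GC correction (log2 0.06) and without shTXNRD1 replicate 3 (log2 0.09). In 4 of 6 tested genes the groups did not overlap, as in 55.4% of all tested genes. EGF fell (log2 -0.73 ± 0.18, adjusted p = 0.00414).

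Within the surrounding lists, 8 of 16 response genes fell and 1 rose with shTXNRD1 (median log2 -0.51, where the median of all genes was -0.01). EGR1, an immediate early transcription factor, gave -1.51 ± 0.06 (adjusted p = 7.15e-11) and CCND1, cyclin D1, -0.59 ± 0.04 (adjusted p = 8.49e-08). Of 10 shedding factors 6 fell and 2 rose (median -0.60): BACE1 gave -1.96 ± 0.06 (adjusted p = 9.63e-12) and ADAM17, the main protease that frees AREG, EREG, TGFA and HBEGF, -0.65 ± 0.06 (adjusted p = 1.35e-06).

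Among the 12 regulators 3 rose and 6 fell (median -0.12), with CBLB, a ubiquitin ligase, at 1.18 ± 0.10 (adjusted p = 1.94e-07) and CD9 at -0.81 ± 0.07 (adjusted p = 1.78e-07). Among the adaptors 5 rose and 3 fell (median 0.17), with PIK3R1, the regulatory subunit of PI3-kinase, at 0.59 ± 0.08 (adjusted p = 2.94e-05) and SHC1 at -0.84 ± 0.12 (adjusted p = 5.22e-05). The proliferation genes summed to 52.0 to 58.6 CPM with shTXNRD1 and 93.5 to 101 CPM in senescent control, with 3 of 4 called lower. CCNB1 was not called (log2 0.08, adjusted p = 0.443). Fibroblast markers summed to 12266 to 15717 CPM and 16994 to 19610 CPM, with 6 of 10 called lower and 3 higher. Those 3 were DCN (1.82-fold), FAP (1.33-fold) and LUM (1.31-fold). Endothelial markers summed to 105 to 133 CPM and 159 to 172 CPM. Most of the endothelial sum was TEK (109 CPM with shTXNRD1 and 161 CPM in senescent control), and of its 4 tested markers 3 fell, while KDR rose 17.1-fold, at 8.24 CPM against 0.471 CPM (adjusted p = 1.58e-08). Epithelial markers summed to 6.89 to 8.71 CPM and 6.20 to 7.87 CPM, with EPCAM 3.34-fold higher, at 3.63 CPM against 1.08 CPM (adjusted p = 5.67e-05), and KRT8 1.64-fold lower (adjusted p = 0.0181). The part of these shifts in the ligand results was not tested.

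The third comparison set Tri-1 against DMSO. Among the 4 tested member ligands AREG moved most, and its sum was 2.28-fold lower with Tri-1 (log2 -1.19 ± 0.07, adjusted p = 8.07e-08), at 87.2 ± 1.70 CPM against 199 ± 7.58 CPM (SD, n = 3 each), with all 3 Tri-1 libraries below all 3 DMSO libraries. The own row gave the same size with a wider error (log2 -1.19 ± 0.84, adjusted p = 0.363) in a model where all groups share 1 spread per gene. With the 6 compared libraries alone, the own row was called (log2 -1.20, adjusted p = 1.77e-07).

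EGFR was called higher with Tri-1, 1.14-fold (log2 0.19 ± 0.05, adjusted p = 0.0174), at 684 ± 10.6 CPM against 598 ± 0.532 CPM. It was 1 of 6 tested genes called, where 19.9% of all tested genes were called (7.64% higher and 12.2% lower), and its call ended with no filter on low counts (adjusted p = 0.136) and without any DMSO library or Tri-1 replicate 3 (adjusted p = 0.0539 to 0.0565). HBEGF gave 61.7 ± 0.523 CPM against 51.4 ± 2.39 CPM (log2 0.26, 95% interval 0.04 to 0.49, adjusted p = 0.0882; 0.036 with limma-voom and 0.0405 with GC correction). EREG gave 348 ± 3.40 CPM against 393 ± 22.3 CPM (log2 -0.18, interval -0.37 to 0.01, adjusted p = 0.166), and NRG1 406 ± 7.54 CPM against 430 ± 2.81 CPM (log2 -0.08, interval -0.23 to 0.06, adjusted p = 0.413). In NRG1, HBEGF, AREG, EREG and EGFR the groups did not overlap, as in 48.7% of all tested genes, and with the 6 compared libraries alone all 5 were called. ERBB2 overlapped (log2 0.17, interval -0.42 to 0.77, adjusted p = 0.699). EGF rose with Tri-1 (log2 1.21 ± 0.19, adjusted p = 0.000488).

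Genes around the receptors were also compared between Tri-1 and DMSO. Of the shedding factors 0 rose and 4 fell (median log2 -0.09, all genes 0.01), with ADAM9 at -0.43 ± 0.09 (adjusted p = 0.00431) and ADAM10, which frees EGF and BTC, at -0.32 ± 0.09 (adjusted p = 0.0166; 0.0673 without DMSO replicate 1 and 0.0579 without Tri-1 replicate 2). GAB1 was the 1 adaptor called (-0.52 ± 0.14, adjusted p = 0.0158; 0.0562 without DMSO replicate 2 and 0.0645 without Tri-1 replicate 2; list median 0.10). Of the regulators, RNF41, a ubiquitin ligase for ERBB3, gave 0.31 ± 0.05 (adjusted p = 0.000906) and LRIG3 -0.49 ± 0.10 (adjusted p = 0.00312), with a list median of -0.05. Among the response genes 4 rose and 3 fell (median 0.13), and the 2 with the smallest p, FOS (-1.24 ± 0.14, adjusted p = 2.87e-05) and EGR1 (-0.55 ± 0.05, adjusted p = 8.59e-06), both fell. Fibroblast markers summed to 11677 to 12425 CPM with Tri-1 and 15539 to 18060 CPM with DMSO, with 7 of 10 called lower and 1 higher. Proliferation genes summed to 97.8 to 101 CPM and 157 to 166 CPM, with 4 of 4 called lower. Endothelial markers summed to 51.7 to 55 CPM and 85.3 to 91.1 CPM, mostly TEK (50.7 and 85.2 CPM), with 2 of 4 tested called lower. Epithelial markers summed to 8.71 to 9.06 CPM and 9.02 to 9.92 CPM. The part of these shifts in the results was not tested.

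**Figure D5:**
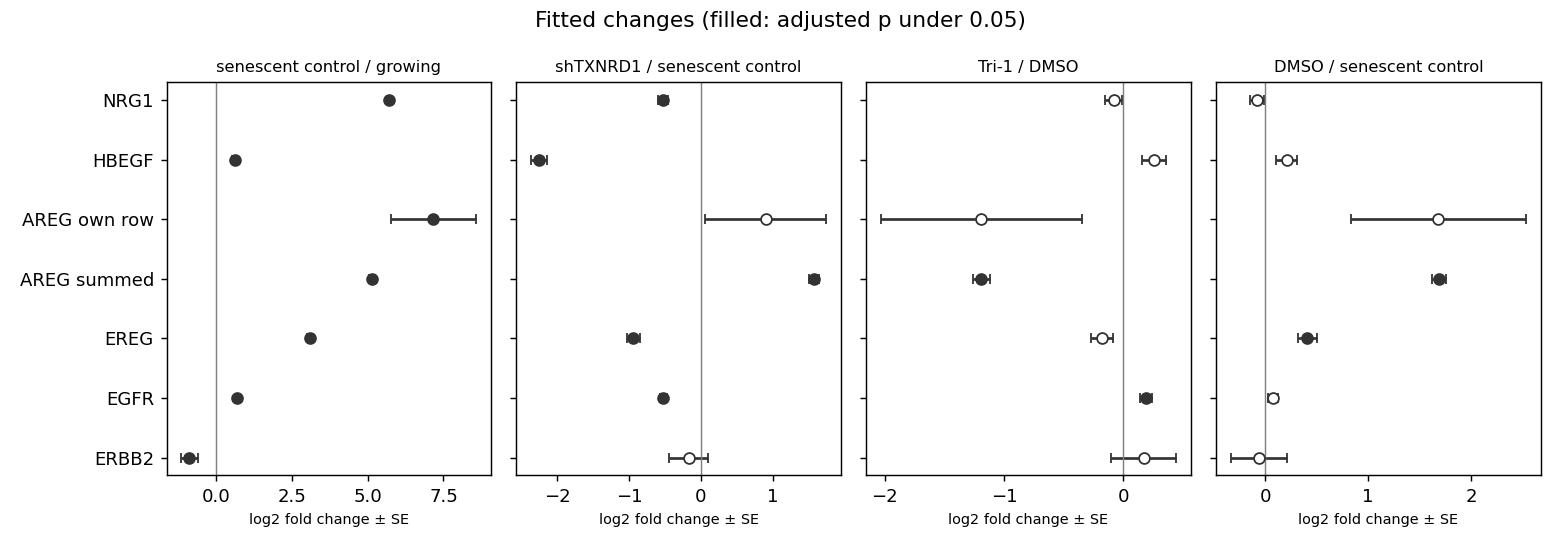
Log2 fold changes with bars of 1 SE are shown for the 6 tested genes and summed AREG in 4 comparisons, senescent control over growing, shTXNRD1 over senescent control, Tri-1 over DMSO and DMSO over senescent control, with filled points at an adjusted p under 0.05 and a separate horizontal scale per panel. With shTXNRD1 HBEGF (-2.25) and summed AREG (1.58) lie on opposite sides of 0, and the own AREG row has the widest bar in each panel.

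Whether the hairpin and the inhibitor changed a gene by different amounts was tested directly, as the shTXNRD1 effect over senescent control minus the Tri-1 effect over DMSO. The difference was called for HBEGF (log2 -2.52 ± 0.15, adjusted p = 3.06e-08), EREG (-0.76 ± 0.12, adjusted p = 0.00021), EGFR (-0.71 ± 0.07, adjusted p = 4.93e-06) and NRG1 (-0.44 ± 0.09, adjusted p = 0.00171), all lower with the hairpin, that is 4 of 6 where 41.7% of all tested genes were called (22.1% higher and 19.5% lower). For summed AREG the difference was 2.77 ± 0.10 (adjusted p = 4.11e-10), higher with the hairpin. The AREG row alone gave 2.09 ± 1.19 (adjusted p = 0.18), and 2.66 (adjusted p = 4.18e-06) without shTXNRD1 replicate 3. For ERBB2 the difference was -0.34, with an interval of -1.18 to 0.50 (adjusted p = 0.498). It was -0.08 (adjusted p = 0.862) without shTXNRD1 replicate 3, and the sign turned with a GC correction (0.03). The effects have separate controls, and the ways of inhibition, the culture and the timing cannot be told apart in this contrast.

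Those separate controls differed from each other in the ligands. DMSO libraries had 3.22-fold more summed AREG than senescent control libraries (log2 1.69 ± 0.07, adjusted p = 2.67e-08), at 199 ± 7.58 CPM against 61.8 ± 2.52 CPM (SD, n = 3 each), and their level exceeded all Tri-1 libraries, which in turn exceeded all senescent control libraries. The own row gave log2 1.68 ± 0.85 (adjusted p = 0.22). EREG was 1.33-fold higher with DMSO (log2 0.41 ± 0.09, adjusted p = 0.00419) and was 1 of 6 tested genes called, where 16.2% of all tested genes were (8.36% higher and 7.87% lower). HBEGF (0.21, interval -0.02 to 0.44, adjusted p = 0.209), NRG1 (-0.08, adjusted p = 0.511), EGFR (0.08, adjusted p = 0.38) and ERBB2 (-0.06, adjusted p = 0.921) were not called, and in 5 of 6 tested genes, all but ERBB2, the groups did not overlap, as in 39.7% of all tested genes. EGF fell (-1.22 ± 0.19, adjusted p = 0.000553). Whether DMSO or another difference in culture goes with these values cannot be told apart.

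Of 16 response genes, 4 rose and 1 fell in DMSO against senescent control (median log2 0.13, all genes -0.01). EGR1 gave log2 0.77 ± 0.05 (adjusted p = 7.31e-07) and DUSP6 0.42 ± 0.06 (adjusted p = 0.000544). Of the regulators 4 rose and 0 fell (median 0.02), among them CD9 at 0.61 ± 0.06 (adjusted p = 2.55e-05) and ERRFI1, a feedback inhibitor of EGFR, at 0.84 ± 0.10 (adjusted p = 5.18e-05). Of the shedding factors 2 rose and 0 fell (median 0.14), ADAM19 at 0.85 ± 0.05 (adjusted p = 1.54e-07) and RHBDL2, a rhomboid protease, at 0.88 ± 0.26 (adjusted p = 0.0322; 0.0975 under DESeq2 and 0.132 without DMSO replicate 1). Proliferation genes summed to 157 to 166 CPM with DMSO and 93.5 to 101 CPM in senescent control, with 4 of 4 called higher (MKI67 at log2 0.81, adjusted p = 2.94e-06). Endothelial markers summed to 85.3 to 91.1 CPM and 159 to 172 CPM, mostly TEK (log2 -0.92, adjusted p = 1.21e-05). Epithelial markers summed to 9.02 to 9.92 CPM and 6.20 to 7.87 CPM, and fibroblast markers to 15539 to 18060 CPM and 16994 to 19610 CPM. The part of these shifts in the ligand values was not tested.

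The inhibited groups were also set against growing control, whose libraries they share with the first comparison. For Tri-1 the vehicle is not matched, since the growing cells are not labelled as DMSO-treated. With shTXNRD1, 6 of 6 tested genes were called where 62.9% of all genes were (32.4% higher and 30.5% lower), and in all 6 the groups did not overlap, as in 59.7% of tested genes. For ERBB2 the gap was narrow, between 45.3 CPM in shTXNRD1 replicate 1 and 45.5 CPM in growing replicate 1, which stood apart by GC slope. In these libraries HBEGF was 3.11-fold lower than in growing cells (log2 -1.64 ± 0.11, adjusted p = 1.13e-08) while NRG1 was 36.3-fold higher, EREG 4.45-fold higher and summed AREG 105-fold higher (log2 6.72 ± 0.10, adjusted p = 2.32e-15). The AREG row alone gave log2 8.06 ± 1.40 (adjusted p = 0.000251). It was 7.43 without growing replicate 1 (adjusted p = 0.00206) and 8.64 without shTXNRD1 replicate 3 (adjusted p = 9.75e-11). EGFR was at log2 0.17 ± 0.05 over growing control (adjusted p = 0.0101; 0.132 with no filter on low counts). ERBB2 was at -1.05 ± 0.27 (adjusted p = 0.00419; 0.0712 with the compared groups alone). Without shTXNRD1 replicate 3 ERBB2 gave -0.79 (adjusted p = 0.0109), and without growing replicate 1 it gave -1.28 (adjusted p = 0.000755).

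With Tri-1, 6 of 6 were called where 62.5% of all genes were (30.3% higher and 32.3% lower), and in all 6 the groups did not overlap, as in 70.3% of tested genes. For ERBB2 this gap too was narrow, between 44.5 CPM in Tri-1 replicate 2 and 45.5 CPM in growing replicate 1. NRG1 was 46.7-fold higher than in growing cells, summed AREG 49.7-fold, EREG 10-fold, HBEGF 2.13-fold (log2 1.09 ± 0.10, adjusted p = 5.60e-07) and EGFR 1.95-fold (log2 0.96 ± 0.05, adjusted p = 1.27e-09). The AREG row alone gave log2 7.66 ± 1.40 (adjusted p = 0.000426), and 7.03 without growing replicate 1 (adjusted p = 0.00346). ERBB2 was at -0.77 ± 0.26 (adjusted p = 0.0227), which was -1 without growing replicate 1 (adjusted p = 0.00437), and the call ended without growing replicate 3 (log2 -0.54, adjusted p = 0.107) and under other settings given with the limits. Relative to growing cells HBEGF was thus called in opposite directions in the hairpin and the Tri-1 libraries. Without inhibition, HBEGF was also above its growing level (29 CPM), at 44.6 CPM in senescent control and 51.4 CPM with DMSO.

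Each tested gene was also matched to the genes whose log2 CPM, centred on its own mean, followed it most closely over the 15 libraries, by the root mean square (RMS) difference. These matches are a description, since libraries of 1 group share their state. NRG1 was nearest to BMP2 (RMS 0.192 log2 units), KCNJ15 (0.292) and IL6 (0.312), and HBEGF to PDLIM1 (0.246), ARRB1 (0.255) and GPR153 (0.311). EREG was nearest to TFPI2 (0.164), ARHGAP22 (0.187) and SAT1 (0.201), and EGFR to LDHA (0.0681), PFDN2 (0.0760) and SH3KBP1 (0.0963). ERBB2 was nearest to NPM3 (0.0933), GPX4 (0.122) and ALYREF (0.156). For AREG, CST4 (1.63) came first for its own row and FER1L6 (0.599) for the sum. The RMS depends on how much a gene varies, so it does not rank the matches between members. Its median over the genes searched was 2.24 for NRG1, 1.05 for HBEGF, 1.35 for EREG and 0.508 for EGFR. It was 0.56 for ERBB2, 3.61 for the AREG row and 2.52 for summed AREG.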

How the data were processed

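Total RNA of IMR90 cells was made into KAPA RNA HyperPrep libraries and sequenced in 75-bp paired-end runs, per the labels. The deposited table holds counts per Ensembl gene, unscaled whole numbers. RSEM 1.2.3, DESeq2 and the builds hg19 and mm10 appear, with no role, per the submitters' processing notes. The aligner, the annotation, the strand setting and how reads of similar genes were shared are not stated in the sources used here. Of 57736 genes, 52301 received a symbol by identifier.

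The test was the robust quasi-likelihood F test in edgeR 4.0.16 (R 4.3.3) after TMM scaling and filterByExpr, with 1 coefficient per group over 15 libraries and 10 residual degrees of freedom; the fit was tested on simulated data. Two-sided p-values were adjusted by Benjamini-Hochberg over 15994 genes in each of 7 comparisons, and SE is the log2 fold change divided by the square root of F. An exact test of 3 against 3 libraries cannot go below p = 0.1. Of 15 pairs of libraries within groups, none agreed within sampling noise (lowest chi-square per gene 1.61). Alternatives were DESeq2 1.42.0, limma-voom (limma 3.58.1), RLE and upper-quartile scaling, other filters (none, or a mean CPM of 5), genes above 1% of a library left out, GC correction, a replicate block, the compared groups alone, the longest transcript as length and each library left out; adding the row ENSG00000205595 to AREG and leaving out the lowest-GC library of each group were added after seeing the data.

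The genes named were all 9 members, the other EGF ligands and ERBB4, plus the 3 nearest genes by pattern. Up to 2 called genes with the smallest p were also named from each of 4 lists (shedding, adaptors, regulators, response). The members and lists were chosen with earlier results of these data known. Promoter sequences are from RefSeq (GRCh38.p14) and lengths from GENCODE v29; no coordinates of the count table are given, since its build is not stated. Clopper-Pearson intervals cover counting error only, and the floor for TGFA covers that of the growing group alone. The 95% intervals of log2 fold changes come from the SE of the fit and include the spread between libraries.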

Additional observations from a re-analysis of the deposited data

Results flagged for a closer look

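The shTXNRD1 effect over senescent control and the Tri-1 effect over DMSO differed by the test of the difference itself (edgeR) for NRG1 (log2 -0.44, adjusted p = 0.00171), HBEGF (-2.52, adjusted p = 3.06e-08), EREG (-0.76, adjusted p = 0.00021), EGFR (-0.71, adjusted p = 4.93e-06) and the sum of the AREG row and the row ENSG00000205595 (2.77, adjusted p = 4.11e-10). That second row has no gene name in the annotations used and was picked after the values were seen. The AREG row alone gave 2.09 (adjusted p = 0.18), and 2.66 (adjusted p = 4.18e-06) without shTXNRD1 replicate 3. The first 4 were lower with the hairpin and the sum was higher.

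The row ENSG00000205595 held 4145 counts in shTXNRD1 replicate 3, above its highest control library (49 counts in growing replicate 1). The count of AREG in that hairpin library was 26.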

How the results depend on the processing

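In each of the comparisons against growing control 6 members were called, and 4 with shTXNRD1 against senescent control and in the difference of effects; these counts stayed within 1.5 times under all alternatives. For Tri-1 against DMSO the count was 1, and it was 2 with limma-voom, 0 with no filter, 5 with the compared groups alone, 2 with GC correction, 2 with AREG summed, 3 without the lowest-GC libraries, and 0 to 1 with each library left out. For DMSO against senescent control it was 1, and it was 3 with the compared groups alone, 3 with GC correction, 2 with the replicate block and GC correction, 2 with AREG summed and 2 without the lowest-GC libraries. Over all genes, Tri-1 against DMSO gave 3176 calls, and 5381 with the compared groups alone, 5399 with GC correction and 5135 with the block and GC correction; DMSO against senescent control gave 2595, and 5176 and 4913 with those last settings.

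Signs turned for the AREG row with shTXNRD1 under limma-voom (-0.83), for ERBB2 with shTXNRD1 under GC correction (0.06), block and GC correction (0.06), each library left out (-0.45 to 0.09, the highest without shTXNRD1 replicate 3) and without the lowest-GC libraries (0.02), for the ERBB2 difference of effects under GC correction (0.03, also with the block), and for ERBB2 with DMSO against senescent control with each library left out (-0.13 to 0.03, the highest without DMSO replicate 1); none of these was called in the setting that turned it, and the cause was not tested. ERBB2 with Tri-1 against growing lost its call with no filter (adjusted p = 0.0578) and without growing replicate 2 (0.0582), growing replicate 3 (0.107), Tri-1 replicate 1 (0.0602) or Tri-1 replicate 3 (0.0695). Under limma-voom the AREG row also lost its calls for shTXNRD1 (7.47, adjusted p = 0.277) and Tri-1 (8.80, adjusted p = 0.196) against growing. Summed AREG was called in all 7 comparisons with DESeq2, limma-voom, RLE scaling, the replicate block and each library left out, with log2 1.49 to 1.63 for shTXNRD1 and -1.21 to -1.16 for Tri-1.

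Replicate numbers gave no clear pairing of the samples: 6 of 30 correlations of same-numbered libraries were over 0.1 (-0.611 to 0.423). With 3 libraries per group that also differ in GC slope, such correlations cannot exclude a pairing. The replicate block gave 6, 4, 1, 4, 1, 6 and 6 members called in the 7 comparisons and changed no such count. At 18033076 or more counts per library, TGFA, BTC and ERBB3 were too low to test.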
